A study of Bombyx mori with 4 samples.

Results

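Redox and antioxidant enzymes were followed in silkworm BmN4-SID1 cells after RNAi against 4 Polycomb group genes. They were chosen by name: a gene probe was taken when its gene symbol, gene description or closest protein match held thioredoxin, peroxiredoxin, superoxide dismutase, catalase, glutaredoxin, peroxidase, ferritin, cytochrome b5 or methionine sulfoxide, and protein disulfide isomerases were left out. This gave 52 of the 23229 gene probes on the array. BmN4 cells were established from the ovary of the silkworm, and their derivative BmN4-SID1 takes up double-stranded RNA from the culture medium. Cells received double-stranded RNA for BmSCE, BmESC, BmPHO or BmSCM, and the control cells received double-stranded RNA for EGFP, a gene that they lack by nature, so that every group had gone through RNAi. RNA was taken on day 7, and that of 3 experiments was pooled for 1 array per knockdown, with Cy5 for the knockdown and Cy3 for the EGFP RNAi control. All results come from a single cell line and from arrays of 1 dye orientation, with no replicate array, so no test between conditions was possible and each value describes 1 pooled sample against the control.

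Cells form superoxide and peroxides as by-products of oxygen use, and a chain of enzymes disposes of them. Superoxide dismutases turn superoxide into hydrogen peroxide, and catalase, glutathione peroxidases and peroxiredoxins break the peroxide down. Thioredoxin, recharged by thioredoxin reductase, gives electrons back to peroxiredoxins and to oxidized cysteines of other proteins, ferritin stores iron in a harmless form, and cytochrome b5 is a small haem protein of the endoplasmic reticulum that passes electrons to desaturases and cytochromes P450.

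A probe was counted as measured on an array when the brighter of its 2 channels reached an intensity of 400, and as risen or fallen when its normalized ratio of knockdown to EGFP RNAi passed 2-fold, which is a log2 ratio above 1 or below -1. The match to extra sex combs (sw12637), the one measured probe that carries the name of a targeted gene, had a log2 ratio of -2.61 in BmESC RNAi, against 0.13 for BmSCE, -0.33 for BmPHO and -0.68 for BmSCM. Of 5 germ-line probes chosen to check the ovarian label, aubergine (sw10899), a piRNA pathway protein, had an EGFP RNAi intensity of 8943 to 11030 and a knockdown intensity of 8026, 8009, 4464 and 7919 on the BmSCE, BmESC, BmPHO and BmSCM arrays, while the 4 probes named nanos were under 400 in both channels, except for 1 of them on the BmPHO array. The spread between repeated spots was taken from 5 silkworm control probes with 49 spots apiece. On single arrays, the SD of their log2 ratios ran from 0.07 to 0.42 with a median of 0.10. By array, the median SD was 0.14 for BmSCE, 0.25 for BmESC, 0.10 for BmPHO and 0.09 for BmSCM RNAi. This is error between spots of 1 hybridization, and it holds nothing of the variation between cultures. In RNA of whole cultures, fewer cells of a type and less RNA per cell cannot be told apart.

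Most of the enzymes could be read, and most stayed within 2-fold. Of the 52 probes, 26 were measured on all 4 arrays, 8 on some and 18 on none. Values are listed in the order BmSCE, BmESC, BmPHO, BmSCM wherever no knockdown is named. Per array, 30, 31, 30 and 32 were measured, which is 57.7 to 61.5% of them, against 32.0 to 42.5% of all gene probes. In BmSCE RNAi 2 of 30 rose and 1 fell, where 2.43% of all measured probes rose and 1.1% fell. In BmESC RNAi 3 of 31 rose and 0 fell (all probes 4.46% and 3.25%). In BmPHO RNAi 4 of 30 rose and 2 fell (all probes 11.8% and 7.85%), and in BmSCM RNAi 2 of 32 rose and 0 fell (all probes 9.46% and 6.29%). These counts are of 0 to 4 probes each, and the shares in BmPHO RNAi, 13.3% risen and 6.67% fallen, lie close to those of all probes. The 4 probes that rose in BmPHO RNAi passed the brightness limit only through the knockdown channel. With both channels at least 400, 0 of 23 rose there and 0 of 24 in BmSCM RNAi, against 1 of 26 on each of the other arrays, and with a floor of 200 the BmPHO count was 2. In all, 9 probes passed 2-fold on at least 1 array and 25 measured probes on none.

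**Figure D1:**
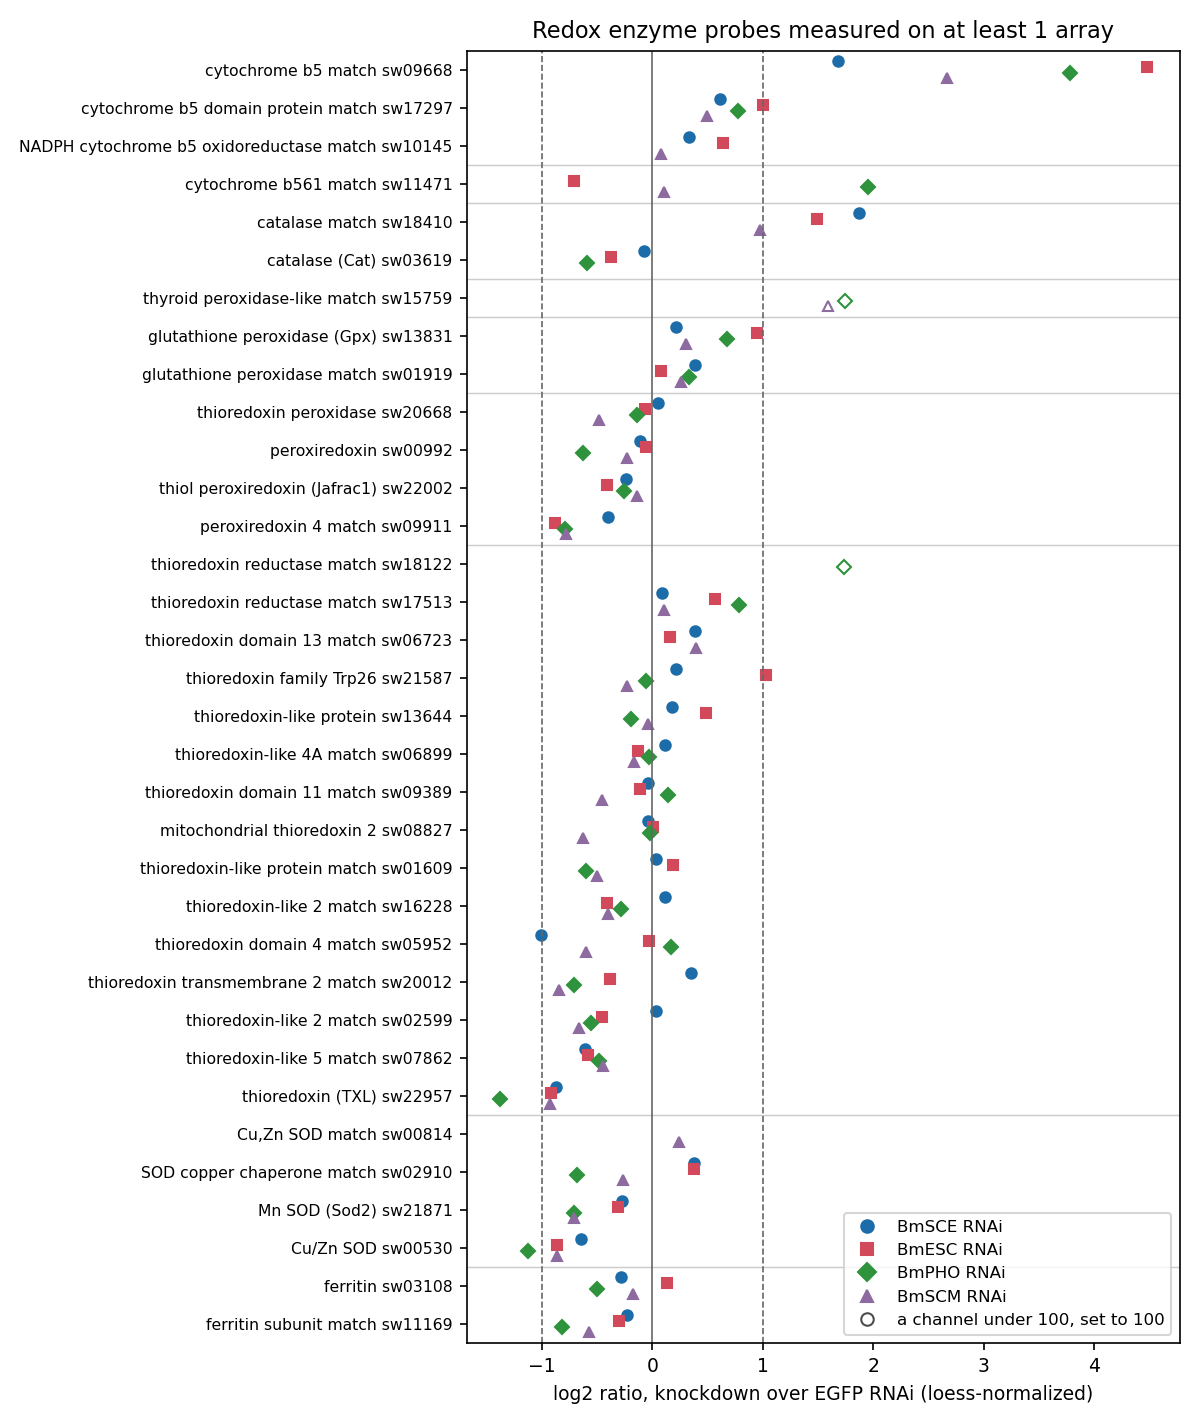
Log2 ratio of knockdown over EGFP RNAi (horizontal axis) for the 34 redox enzyme probes measured on at least 1 array, grouped by family. Each symbol is 1 array, small vertical offsets separate the 4 knockdowns, open symbols had a channel under 100 that was set to 100, and dashed lines mark 2-fold. The cytochrome b5 match sw09668 stands to the right of the 2-fold line on all 4 arrays, at 1.68 to 4.48, and most other symbols lie between the lines.

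The widest changes belonged to a match to cytochrome b5, sw09668 (predicted gene Bmb033658), which the study follows as BGIBMGA003014. It is the gene on which the description of the family turns, and the primers with which the study read it by RT-PCR are shown for that reason, 5′ to 3′ and in lower case throughout, each 30 bases long. Probe sequences were not used here.
BGIBMGA003014 sense primer: acgacggtacatactaccaacgaagtgaat
BGIBMGA003014 antisense primer: tcattcgggtatatcgctaagcttaatacc

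In EGFP RNAi cells sw09668 had a Cy3 intensity of 408, 360, 321 and 290 on the BmSCE, BmESC, BmPHO and BmSCM arrays. In the knockdowns its Cy5 intensity was 1522, 10493, 4771 and 2600. The control was dim and steady, with an SD of 0.12 on the log2 scale over the 4 arrays after scaling, and the knockdown channels were bright and far apart. The normalized log2 ratios were 1.68, 4.48, 3.78 and 2.67, or 3.21-fold for BmSCE, 22.3-fold for BmESC, 13.7-fold for BmPHO and 6.36-fold for BmSCM. It ranked first of 9869 measured probes among those that rose in BmESC RNAi, sixth in BmPHO, and at place 35 and 41 in BmSCE and BmSCM RNAi. The order of the knockdowns was BmESC, BmPHO, BmSCM and BmSCE, with steps of 0.70, 1.11 and 0.99 between neighbours. The spread between spots was smaller, with an SD of up to 0.42, reached on the BmESC array. That is the SD of a single log2 ratio and not of a difference between arrays. Variation between cultures was not measured, so these steps describe the 4 pooled samples. In the deposited table of normalized ratios the order was the same, but the first step was 0.26 and BmESC RNAi stood at 3.73 (13.3-fold), so the order of BmESC and BmPHO RNAi is not firm. Of 6488 probes measured on all arrays, 18 spanned at least as wide a range between knockdowns as sw09668, a count that includes sw09668 itself.

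**Figure D2:**
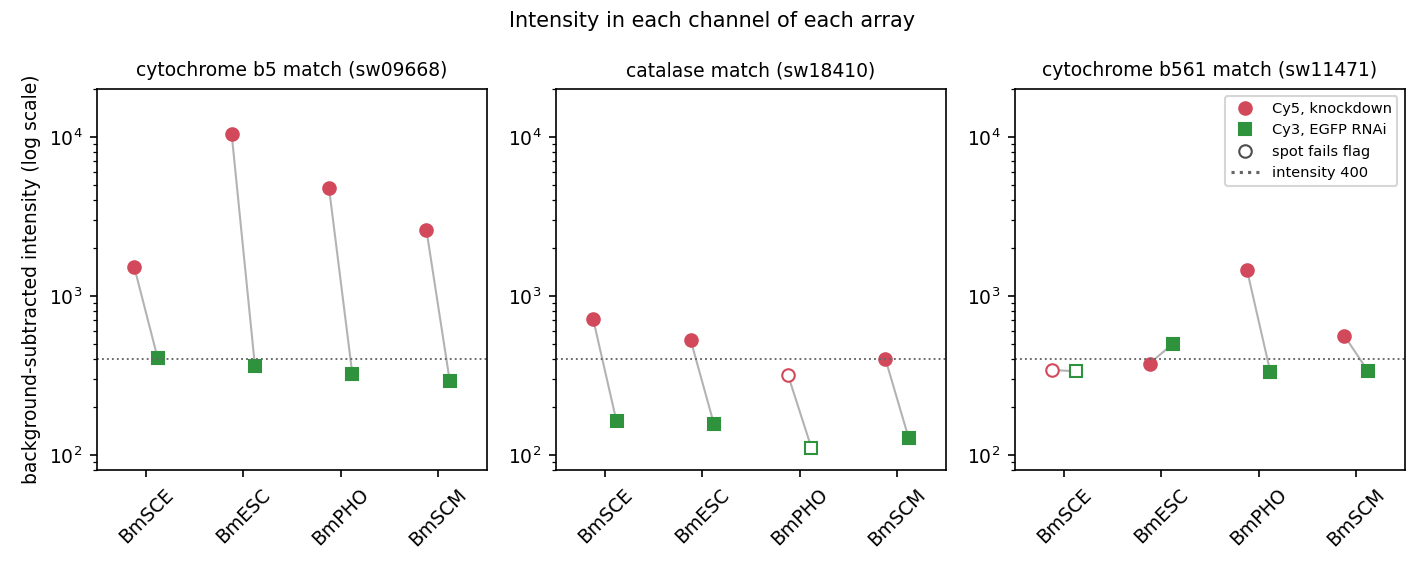
Background-subtracted intensity (log axis) of the knockdown channel, Cy5, and the EGFP RNAi channel, Cy3, on each of the 4 arrays for the probes sw09668, sw18410 and sw11471. A line joins the 2 channels of an array, open symbols failed the brightness limit, and the dotted line marks an intensity of 400. For sw09668 the EGFP RNAi channel stays at 290 to 408 while the knockdown channel runs from 1522 to 10493.

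The other cytochrome b5 probes changed less. A match to a protein with a cytochrome b5 domain (sw17297) had log2 ratios of 0.62, 1.00, 0.77 and 0.49, with BmESC RNAi just short of 2-fold before rounding. Like sw09668 it was highest in BmESC RNAi and second highest in BmPHO RNAi, at a far smaller size. A match to an NADPH cytochrome b5 oxidoreductase (sw10145), which joins a flavin reductase to a cytochrome b5 domain, was too dim in BmPHO RNAi and had log2 ratios of 0.34, 0.64 and 0.08 on the other arrays. All measured values of these 3 probes were above 0 on every array where they could be read. The 2 probes annotated as Bombyx cytochrome b5 itself (sw03099 and sw08853, which share their match) and a second oxidoreductase match (sw16028) were not measured on any array. A match to cytochrome b561 (sw11471) entered the list through the letters of its name. Cytochromes b561 are membrane proteins that carry electrons from ascorbate, and not relatives of cytochrome b5. Its Cy5 and Cy3 intensities were 375 and 500 in BmESC RNAi and 1458 and 332 in BmPHO RNAi. Its Cy3 intensity was 338 on the BmSCM array, and in BmSCE RNAi the spot was too dim, at 342 and 335. It rose in BmPHO RNAi alone, with a log2 ratio of 1.96, and gave -0.71 in BmESC and 0.11 in BmSCM RNAi. The BmESC spot passed the brightness limit only through the control channel, and the BmPHO spot only through the knockdown channel.

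Both glutathione peroxidase probes were above the control level on all arrays, and the catalase probes, whose enzyme removes hydrogen peroxide too, were split. Glutathione peroxidase (Gpx, sw13831) was the brightest probe with peroxidase in its name. Its Cy5 intensity was 16797, 22251, 13623 and 12472, and its Cy3 intensity 11943, 8726, 8793 and 10144. The log2 ratios were 0.21, 0.95, 0.68 and 0.31, highest in BmESC and then in BmPHO RNAi and within 2-fold on all arrays. With median centring in place of loess the BmESC value became 1.15. A second glutathione peroxidase match (sw01919) gave 0.39, 0.08, 0.34 and 0.26, and both probes were above 0 on every array. The probe annotated as silkworm catalase (Cat, sw03619) had intensities of 318 to 677 and log2 ratios of -0.07, -0.37 and -0.59 in BmSCE, BmESC and BmPHO RNAi, and was too dim in BmSCM RNAi. A different probe matched to catalase (sw18410) went the other way. Its Cy3 intensity was 162, 156, 111 and 127, and its Cy5 intensity 713, 529, 318 and 401. It rose in BmSCE (1.87) and BmESC RNAi (1.49), gave 0.98 in BmSCM RNAi, and was under the brightness limit in BmPHO RNAi. The size of its ratio changed with the processing: with a floor of 200 in place of 100 the values for BmSCE, BmESC and BmSCM were 1.56, 1.12 and 0.02, and in the deposited table of ratios 2.49, 2.96 and 1.25. For BmSCM RNAi, median centring gave 1.51 and print-block loess 1.10, so its side of 2-fold there depends on the processing. The last catalase match (sw18487) was not measured on any array.

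The remaining peroxidase probes matched haem peroxidases of other animals, a family that includes thyroid peroxidase of vertebrates. Of these 9 probes, 8 shared 1 honeybee peroxidase as their match and were not measured on any array. A thyroid peroxidase-like match (sw15759) passed the brightness limit in BmPHO RNAi, with a Cy5 intensity of 405 against a Cy3 intensity of 69, and in BmSCM RNAi, with 484 against 94. Its control channel was under 100 on both arrays, and was set to 100, which gave log2 ratios of 1.75 and 1.59. These sizes rest on the processing: print-block loess gave 1.07 and 1.11, the deposited table of ratios 1.02 and 1.26, and a floor of 200 gave 0.71 and 0.44. In BmSCE and BmESC RNAi it was too dim, at Cy5 intensities of 263 and 197.

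Peroxiredoxins, which reduce peroxides with electrons from thioredoxin, were slightly lower in most arrays and passed 2-fold in none. The brightest was thiol peroxiredoxin (Jafrac1, sw22002), with Cy3 intensities of 8911 to 10650 and log2 ratios of -0.24, -0.41, -0.26 and -0.14. A second, annotated simply as peroxiredoxin (sw00992), gave -0.11, -0.06, -0.63 and -0.23. A match to peroxiredoxin 4 (sw09911), the form that works in the secretory pathway of mammals, was the lowest of the 4, at -0.40, -0.88, -0.79 and -0.78. Thioredoxin peroxidase (sw20668) gave 0.05, -0.07, -0.14 and -0.48. All 4 probes were below 0 in BmESC, BmPHO and BmSCM RNAi and 3 of 4 in BmSCE RNAi, with medians of -0.18, -0.24, -0.44 and -0.36. Of all measured probes, 46.5 to 48.1% were below 0 on an array.

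Superoxide dismutases were also on the low side. The copper/zinc enzyme (sw00530), which works in the cytosol, had Cy5 intensities of 2803, 3432, 2372 and 2849 against Cy3 intensities of 3779, 4796, 5154 and 4653. The knockdown channel was below the control on each array, with log2 ratios of -0.64, -0.86, -1.13 and -0.86, and the probe fell past 2-fold in BmPHO RNAi (2.19-fold). In the deposited table of ratios it was past 2-fold in BmESC (-1.06) and BmSCM RNAi (-1.06) as well. Against the median of the other 3 knockdowns the BmPHO value was -0.27, since all 4 were low. The manganese enzyme of mitochondria (Sod2, sw21871) gave -0.28, -0.31, -0.71 and -0.71, with its lowest values in BmPHO and BmSCM RNAi. A match to the copper chaperone that loads the copper/zinc enzyme (sw02910) was above 0 in BmSCE (0.38) and BmESC RNAi (0.38) and below it in BmPHO (-0.68) and BmSCM RNAi (-0.26). Of the other 3 probes, a copper/zinc superoxide dismutase match (sw00814) was measured in BmSCM RNAi alone, at 0.24, and sw05948 and sw21872 on no array.

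**Figure D3:**
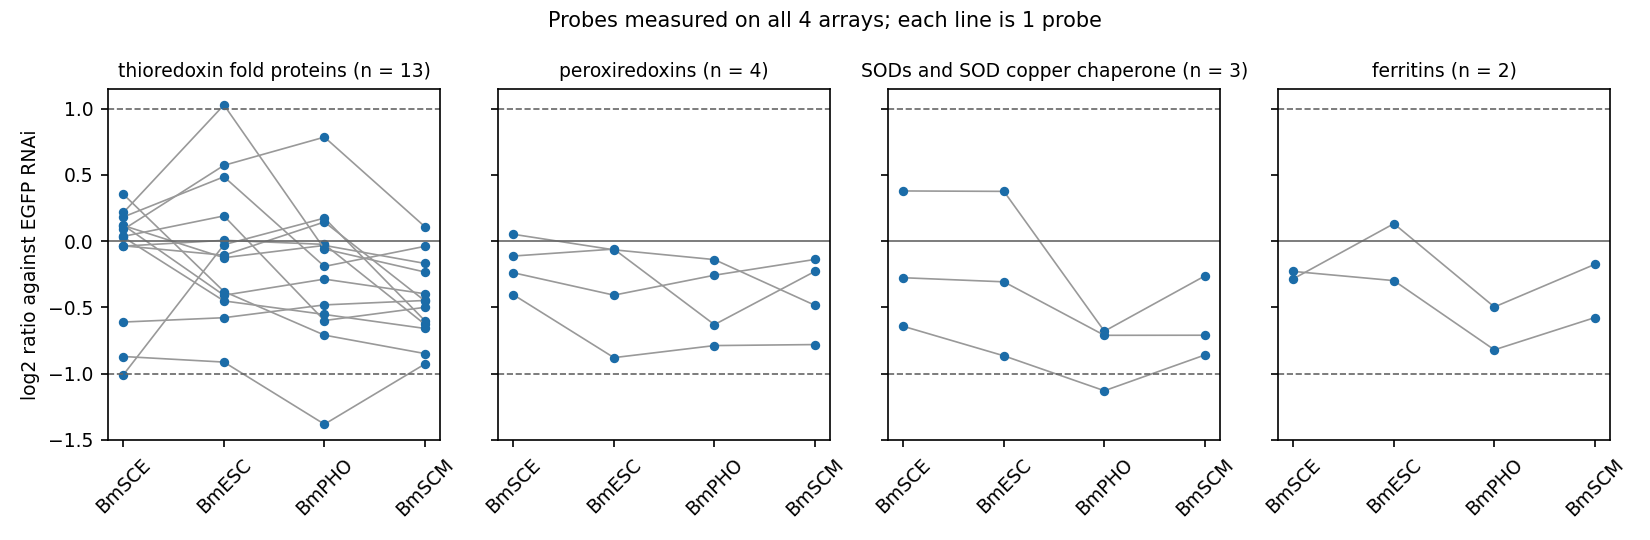
Log2 ratio over EGFP RNAi (vertical axis) on the 4 arrays for the probes of 4 families that were measured on all arrays: 13 of the thioredoxin group, 4 peroxiredoxins, 3 of the superoxide dismutase (SOD) group and 2 ferritins. Thin lines join the values of 1 probe and the dashed lines mark 2-fold, and the peroxiredoxins lie below 0 in BmESC, BmPHO and BmSCM RNAi.

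Of the thioredoxin group, 17 probes, 13 were measured on all arrays and 14 on each array. The number below 0 was 5, 8, 10 and 12, and the median log2 ratio 0.06, -0.07, -0.12 and -0.45. The lowest in BmESC, BmPHO and BmSCM RNAi was the probe annotated as thioredoxin with a match to the thioredoxin-like protein TXL (sw22957). Its Cy5 intensity was 504, 493, 305 and 572 against Cy3 intensities of 789, 743, 684 and 735, so the control varied little and the knockdown channel was below it on every array. The log2 ratios were -0.87, -0.91, -1.38 and -0.93, and it fell past 2-fold in BmPHO RNAi (2.61-fold). Against the median of the other 3 knockdowns the BmPHO value was -0.47. Thioredoxin family Trp26 (sw21587) had Cy5 intensities of 2925, 4277, 1970 and 1965 and Cy3 intensities of 2179, 1606, 1967 and 1894. It rose just past 2-fold in BmESC RNAi (1.03) while the other arrays showed 0.22, -0.06 and -0.23. A match to thioredoxin domain containing 4 (sw05952), known in mammals as a chaperone-like protein of the endoplasmic reticulum, was just past 2-fold in BmSCE RNAi at -1.01, with a Cy5 intensity of 375 and a Cy3 intensity of 641. On the other arrays its values were -0.03, 0.17 and -0.60, and the BmSCE value moved to between -0.98 and -0.76 under median centring, print-block loess, the deposited ratios and the comparison with the other knockdowns. It is therefore a value at the threshold.

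Thioredoxin reductase, the enzyme that recharges thioredoxin, had 2 probes with the same match. One (sw17513) gave 0.09, 0.57, 0.79 and 0.11, all within 2-fold. The other (sw18122) passed the brightness limit in BmPHO RNAi alone, with a Cy5 intensity of 402 against a Cy3 intensity of 80, which, with the control set to 100, gave a log2 ratio of 1.74. The value was 1.64 with print-block loess, 1.93 in the deposited table and 0.70 with a floor of 200. The brightest thioredoxin probe, thioredoxin-like protein (sw13644), gave 0.18, 0.49, -0.19 and -0.04, and a second probe with the same match (sw01609) gave 0.04, 0.19, -0.60 and -0.50. Both were above 0 in BmSCE and BmESC RNAi and below it in BmPHO and BmSCM RNAi. A match to the thioredoxin-related transmembrane protein 2 (sw20012) was above 0 in BmSCE RNAi alone, at 0.35, -0.38, -0.71 and -0.85. Mitochondrial thioredoxin 2 (sw08827) gave -0.04, 0.01 and -0.02 in BmSCE, BmESC and BmPHO RNAi and -0.63 in BmSCM RNAi. Its control channel was unsteady, with Cy3 intensities of 512, 1187, 780 and 564 and an SD of 0.53 on the log2 scale after scaling. In BmSCM RNAi its Cy5 intensity was 551 against that Cy3 of 564. Thioredoxin-like 5 (sw07862) was below 0 on every array, from -0.61 to -0.45. The 2 thioredoxin-like 2 matches (sw02599 and sw16228) were above 0 in BmSCE RNAi (0.03 and 0.12) and below it in the other knockdowns, at -0.66 to -0.29. The match to thioredoxin-like 4A (sw06899), a protein of the splicing machinery in spite of its fold, lay between -0.17 and 0.12. Of 3 probes that share a match to thioredoxin domain containing 11, sw09389 lay between -0.45 and 0.15 and sw06406 and sw07708 were not measured. The match to thioredoxin domain containing 13 (sw06723) was too dim in BmPHO RNAi and had log2 ratios of 0.39, 0.16 and 0.39 elsewhere.

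Ferritin, whose subunits assemble into the shell that stores iron, was among the brightest of the group. The probe annotated as ferritin (sw03108) had Cy3 intensities of 14381 to 15775 and log2 ratios of -0.28, 0.13, -0.50 and -0.17. The ferritin subunit match (sw11169) gave -0.23, -0.30, -0.82 and -0.58, with BmPHO RNAi lowest for both probes and no value past 2-fold. The glutaredoxin match (sw02072) and methionine sulfoxide reductase (sw11268), the repair enzyme of oxidized methionine, were the only probes with those words. Neither was measured on any array, so no probe annotated with those words could be read.

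The median of the group was slightly below the control level in BmPHO and BmSCM RNAi. Its log2 ratio was 0.04, -0.06, -0.22 and -0.23, against 0.02, 0.02, 0.05 and 0.07 over all measured probes. The number of enzymes below 0 was 13 of 30, 17 of 31, 20 of 30 and 21 of 32, which is 43.3, 54.8, 66.7 and 65.6%, where all probes gave 46.5 to 48.1%. The same arrays stood apart in the added controls named Y1 to Y8. The median of their median log2 ratios was 1.12 and 1.14 in BmSCE and BmESC and 3.96 and 3.20 in BmPHO and BmSCM RNAi. Y4 was measured in 1 and 0 of 48 spots on the BmSCE and BmESC arrays. Another added control, Hex, was left out of this median and gave -8.35, -8.35, -9.56 and -9.32. Probes with muscle names, among them a match to a nonmuscle myosin, had medians of -0.32, -0.33, -0.57 and -0.12 (12 to 16 of 31 measured). Other lists of cell type names had fewer measured probes. Medians were 0.12, 0.29, 0.18 and 0.15 for haemocyte names, from 8, 8, 7 and 9 measured probes. Fat body names gave 0.67, 0.07, 1.02 and 1.21, from only 2, 3, 2 and 2 measured probes, of which 1 rose on each array. These were an arylphorin match (sw06703) and matches to vitellogenin receptors, not vitellogenin (sw12049, and sw00167 in BmESC RNAi). Silk gland names gave 0.28, 0.27, -0.09 and -0.27, from 4, 5, 4 and 4 measured probes. Germ-line names gave -0.71, -0.67, -0.41 and -0.20, from only 1, 1, 2 and 1 measured probes. In BmPHO RNAi these were aubergine (sw10899), which fell past 2-fold with Cy5 4464 against Cy3 9534, and a nanos probe (sw19687) at 575 against 421. The part of the added controls or of these lists in the group medians was not tested. Among probes whose brighter channel was at least 1500, a limit chosen after the values were seen, 15 of 19 in BmPHO and 15 of 18 in BmSCM RNAi were below 0, or 78.9% and 83.3%, against 49.1% and 47.4% of all bright probes. In BmSCE and BmESC RNAi 8 of 20 and 11 of 21 were below 0, or 40.0% and 52.4%, against 48.3% and 46.9%. The BmPHO median of the whole group was -0.11 with print-block loess and -0.05 when each array was set against the other 3. That comparison uses the same log2 ratios, so the Cy3 reading of every array stays in it. The bright probes above 0 in both BmPHO and BmSCM RNAi were sw09668 and the glutathione peroxidase probes sw13831 and sw01919, joined in BmPHO RNAi by sw09389.

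**Figure D4:**
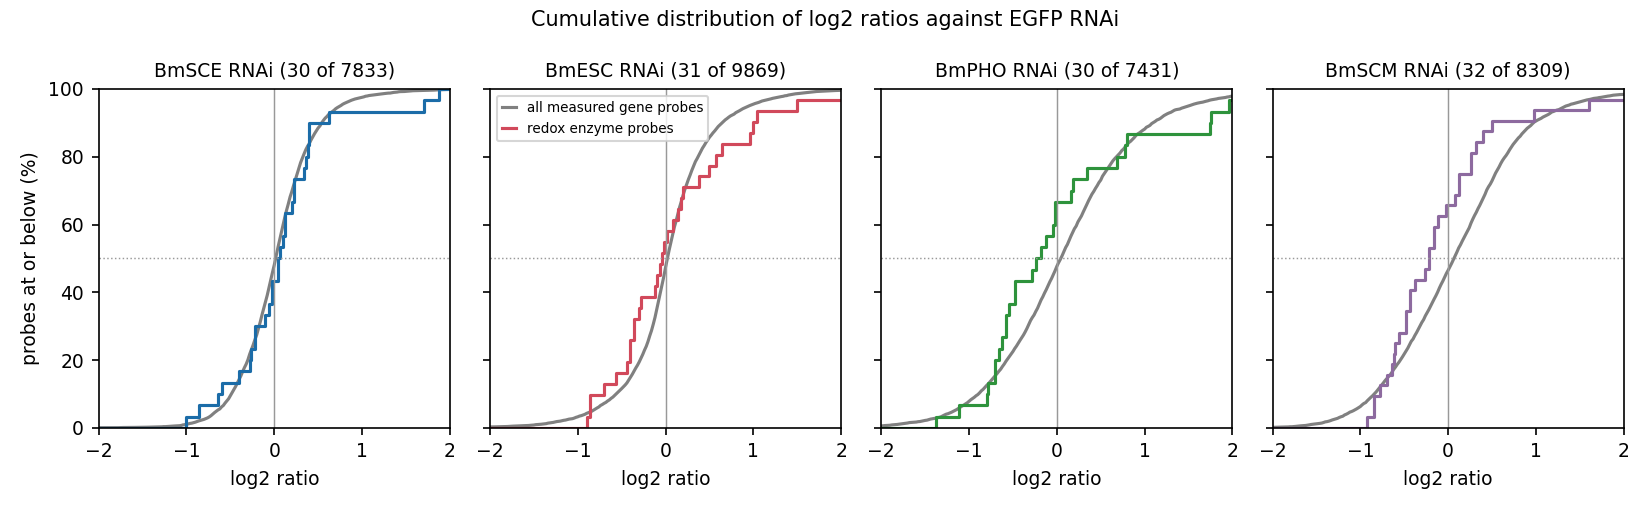
Share of probes at or below each log2 ratio (vertical axis, percent) for the measured redox enzyme probes, coloured, and for all measured gene probes, grey, on each array. The horizontal axis is shown from -2 to 2, which leaves sw09668 outside it in BmESC, BmPHO and BmSCM RNAi. At a log2 ratio of 0 the coloured curves stand at 43.3, 54.8, 66.7 and 65.6% from left to right, and the grey curves at 46.5 to 48.1%.

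Between knockdowns, few enzymes differed by more than 2-fold. All 4 arrays share the EGFP RNAi reference, so each comparison below sets the log2 ratio of a probe on one array against that on another. From BmSCE to BmESC RNAi 1 of 30 probes measured on both arrays was higher by more than 2-fold, sw09668 by 2.80, and 0 were lower, where 1.85% and 1.84% of all probes were. From BmSCE to BmPHO RNAi 2 of 27 were higher and 2 lower (all probes 5.55% and 4.7%). From BmSCE to BmSCM RNAi 0 of 29 were higher and 1 lower (4.91% and 4.23%). From BmESC to BmPHO RNAi 1 of 28 was higher and 2 lower (5.55% and 5.33%), and from BmESC to BmSCM RNAi 0 of 30 were higher and 2 lower (5.01% and 5.87%). From BmPHO to BmSCM RNAi 0 of 28 were higher and 2 lower (1.12% and 0.964%), sw09668 by 1.11 and sw11471 by 1.85. Of the 26 enzymes measured on all arrays, 8 (30.8%) were below 0 on all 4, against 26.6% of all such probes, and 5 (19.2%) were above 0 on all 4, against 24.8%. Their median range across the 4 arrays was 0.59 on the log2 scale, and that of all such probes 0.68.

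Of the measured values, 12 had a log2 ratio between 0.85 and 1.2 in size. Just past 2-fold were sw05952 in BmSCE RNAi (-1.01), sw21587 in BmESC RNAi (1.03) and sw00530 in BmPHO RNAi (-1.13). Just short of it were sw17297 in BmESC RNAi (1.00), sw18410 in BmSCM RNAi (0.98), sw13831 in BmESC RNAi (0.95), sw22957 in BmSCE, BmESC and BmSCM RNAi (-0.87, -0.91 and -0.93), sw09911 in BmESC RNAi (-0.88), and sw00530 in BmESC and BmSCM RNAi (-0.86 on both).

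The probes whose 4 log2 ratios were closest to those of sw09668, by the mean absolute difference over the arrays among 6487 other probes, were not redox enzymes. Insulin-related peptide binding protein (sw06810) was closest, at a mean difference of 0.39, with log2 ratios of 1.49, 3.81, 4.28 and 2.86. A probe without a protein match (sw08911) followed at 0.44, with 1.90, 3.55, 3.34 and 2.51, and then a match to the polyprotein of a BEL12 transposon (sw19647) at 0.67, with 1.28, 3.05, 3.07 and 2.53. All 3 were lowest in BmSCE RNAi, as sw09668 was. They were chosen for closeness to its values, so this is not a separate result. The nearest redox enzyme was sw17297, at rank 541 with a mean difference of 2.43.

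A wider list of redox-related genes, found by words such as glutathione, cytochrome P450, desaturase, metallothionein and aldehyde oxidase and holding none of the 52 probes, gave 180 probes. Of 44, 55, 42 and 44 measured, 2, 1, 5 and 3 rose and 0, 3, 8 and 3 fell. The median log2 ratios were -0.07, 0.04, -0.37 and -0.22. Over all measured probes 2.43, 4.46, 11.8 and 9.46% rose and 1.1, 3.25, 7.85 and 6.29% fell, so that the 8 of 42 that fell in BmPHO RNAi were the count farthest above these shares. Of 29 probes with glutathione in their name, 13, 18, 13 and 14 were measured, 0 rose, and 0, 1, 3 and 1 fell. Glutathione S-transferases attach glutathione to foreign compounds. Glutathione S-transferase 2 (sw18220) gave -0.36, -1.79, -1.12 and -0.64, and glutathione S-transferase 4 (sw17540) -0.83, -0.38, -1.03 and -1.25. A match to metallothionein (sw06668), a protein that binds metal ions through its cysteines, gave -0.06, -0.26, -1.08 and -1.48. A match to a microsomal glutathione transferase (sw13395) fell in BmPHO RNAi (-1.34), and a match to aldehyde oxidase (sw21227) did so too (-1.29).

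Cytochrome b5 passes electrons to cytochromes P450 and desaturases. Of the 84 probes with cytochrome P450 in their annotation, 15, 16, 15 and 14 were measured, of which 1, 1, 3 and 2 rose and 0, 2, 3 and 1 fell. Among those that rose in BmPHO RNAi was NADPH cytochrome P450 reductase (sw02901, 1.71), which is not itself a cytochrome P450. Of the 22 desaturase probes, 7, 6, 5 and 6 were measured, of which 1, 0, 2 and 1 rose and 0 fell on any array. Most measured probes of both lists thus stayed within 2-fold. A probe annotated as cytochrome P450 (sw17546) had log2 ratios of -0.66, -1.31, -2.39 and -2.04. A match to a family 4 cytochrome P450 (sw19748) rose in BmPHO (1.58) and BmSCM RNAi (1.85), while another probe with such a match (sw02345) fell in BmPHO RNAi (-1.40). Cyp302a1 (sw13659), an enzyme of ecdysone synthesis, rose in BmPHO RNAi (1.18), with 0.68, 0.70 and 0.25 in the other knockdowns. Cytochrome P450 18a1 (sw01581), which breaks down ecdysone in Drosophila, was the one related probe that rose in BmESC RNAi (1.43). It also rose in BmSCE RNAi (1.03) and could not be read in BmPHO and BmSCM RNAi. A hypothetical protein with a desaturase match (sw13468) had log2 ratios of 0.57, 0.59, 2.31 and 1.77 and so rose in BmPHO and BmSCM RNAi. An acyl-CoA desaturase (sw13636) rose in BmSCE RNAi (1.86), the one array on which it could be read.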

How the data were processed

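RNA of BmN4-SID1 cells on day 7 of RNAi was measured on 4 two-colour arrays of 24288 spots, 1 array per knockdown. The intensity columns were deposited by the authors with local background subtracted. The deposited ratio column holds Cy5 over Cy3 after a normalization by the authors, and the deposited log2 values of the series table are its log2. The sources used here give neither that normalization nor the image software nor how spots were flagged. As checked on the intensities, spots with a brighter channel of 400 or more carry a passing flag.

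Intensities under 100 were set to 100 and log2 ratios were normalized by loess against mean brightness over all 23229 gene probes (limma 3.58.1, R 4.3.3), tested on simulated data. The simulated data held equal numbers of probes changed up and down. Changed probes were scored only where both channels reached the floor, so the simulation does not cover spots set to it. Where a channel was under 100 the size of the ratio depends on this floor. Python 3.11.15, numpy 2.4.6 and pandas 2.3.3 made the counts. These log2 ratios correlated with the deposited ones at 0.961 to 0.971 per array.

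The enzymes and lists were chosen with earlier results of these data known. Probes named in full are sw09668, all enzymes past 2-fold on an array, and the brightest probe of each of the 9 words; the others are given to account for every probe. The word disulfide-isomerase with a hyphen was read as disulfide isomerase. All 15 silkworm gene numbers of the group matched RefSeq. Names from proteins of other species are called matches. The number of arrays limits the precision, and no p-value was computed. Alternatives were median centring, print-block loess (48 blocks), the deposited ratios, a floor of 200, both channels at least 400, no brightness limit, and each array against the median of the other 3.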

Additional observations from a re-analysis of the deposited data

Results flagged for a closer look

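The match to cytochrome b561 (sw11471) had log2 ratios of opposite sign over EGFP RNAi, at 1.96 in BmPHO RNAi and -0.71 in BmESC RNAi. With 1 array per knockdown the difference was not tested. The probe was dim against a brightness limit of 400. Its Cy5 and Cy3 intensities were 1458 and 332 in BmPHO RNAi and 375 and 500 in BmESC RNAi. It passed the limit only through Cy5 in BmPHO RNAi and only through Cy3 in BmESC RNAi, so the passing channel also set the sign. The control read 335 and 338 on the BmSCE and BmSCM arrays.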

How the results depend on the processing

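No paired analysis was possible because each knockdown has 1 array and no replicate number. The log2 ratio of sw09668 kept its sign and its side of 2-fold on all 4 arrays with median centring, print-block loess, the deposited ratios and a floor of 200. Set against the median of the other 3 arrays it turned to -2.10 in BmSCE and -1.11 in BmSCM RNAi, since the other knockdowns were higher. The related list below is the wider list of 180 probes.

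With median centring 0 enzymes fell in BmSCE and 5 rose in BmESC RNAi, and in the related list 2 rose in BmESC and 6 in BmSCM RNAi, with medians of -0.26 in BmPHO and -0.002 in BmSCM RNAi. With print-block loess 0 enzymes fell in BmSCE RNAi, the BmPHO median was -0.11, and 1 related probe rose in BmSCE RNAi. With the deposited ratios 0, 1 and 1 enzymes fell in BmSCE, BmESC and BmSCM RNAi, and 1 and 2 related probes rose in BmSCE and BmESC RNAi. A floor of 200 left 2 risen enzymes in BmPHO and 1 in BmSCM RNAi, and 1 related probe in BmSCE RNAi. With both channels at least 400, 1, 1, 0 and 0 enzymes rose in the 4 knockdowns, 0 fell in BmSCE and 1 in BmPHO RNAi, and the BmSCM median was -0.45, while in the related list 0 rose in BmSCE, 0 rose in BmESC and 5 fell in BmPHO RNAi and the BmSCM median was -0.38. This limit removes sw09668 in all but BmSCE RNAi, because its control channel was under 400. With no brightness limit the enzyme medians were 0.0 in BmPHO and -0.019 in BmSCM RNAi, and in the related list 1 fell in BmSCE and 9 in BmSCM RNAi, with medians of 0.0 in BmPHO and 0.0 in BmSCM RNAi. Dim spots are then at the floor in both channels.

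Against the other 3 arrays 1, 1 and 0 enzymes rose for BmSCE, BmPHO and BmSCM, 1 fell in BmPHO and 1 in BmSCM RNAi, and the medians were 0.22 in BmESC and -0.046 in BmPHO RNAi. In the related list 2, 2 and 1 fell in BmSCE, BmPHO and BmSCM RNAi, 2 rose in BmPHO RNAi, and the medians were 0.096 for BmSCE, -0.16 for BmPHO and 0.067 for BmSCM, the last with its sign turned. Among bright probes only, chosen after seeing the data, 1 enzyme rose in each of BmSCE, BmPHO and BmSCM RNAi, 0 fell in BmSCE and 1 in BmPHO RNAi. Without cytochrome b561 and the other haem peroxidases, also chosen after seeing the data, 2 rose in BmPHO and 1 in BmSCM RNAi. The cause of these shifts was not tested. With 1 pooled sample per knockdown, no difference could be set against variation between cultures, and probes under an intensity of 400, among them 18 of the 52, could not be read at all.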
